A study of Mus musculus with 9 samples.

Results

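The RNA levels of 40 genes of protein folding, degradation and stress signalling in the endoplasmic reticulum (ER) were followed in mouse brain. The genes were taken as a named list of ER chaperones, disulfide isomerases, genes of ER-associated degradation (ERAD) and genes of the unfolded protein response (UPR). They are 40 of the 54446 gene identifiers counted, and all 40 passed the filter on low counts that left 17355 genes to test. The list was chosen with earlier results of these data known. Polyadenylated RNA was sequenced from brain tissue of adult males aged 3 to 4 months, with 3 libraries for each of 3 genotypes. The mice were labelled Tfap2b+/-, Tfap2a+/- or wild type (strain label B6N), so the labels of the first 2 groups name heterozygotes for a gene of an AP-2 transcription factor, and no group received a treatment. The part of the brain taken, the design of the alleles and whether each library came from its own animal are not given in the sources used here. The p-values therefore reflect no more than the variation among these 9 libraries, part of which may be technical.

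Proteins bound for the cell surface or for secretion enter the ER through the Sec61 channel, fold there with the help of the Hsp70 chaperone BiP, of disulfide isomerases and of the sugar-binding chaperones calnexin and calreticulin, and are sent to the proteasome by ERAD when they fail. When unfolded proteins build up, the membrane sensors IRE1, ATF6 and PERK are set free or activated, and the transcription factors XBP1, cleaved ATF6 and ATF4 raise the RNA of chaperones, of ERAD genes and of amino acid enzymes. Neurons and the secretory cells of the brain carry a large load of membrane and secreted proteins, and the ER chaperones are known to be expressed throughout the tissue.

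Many promoters of this pathway hold a known binding element for ATF6, XBP1 and the CCAAT factor NF-Y. The elements looked for were the ER stress element ERSE (CCAAT and CCACG with 9 bases between them), ERSE-II (ATTGG and CCACG with 1 base between them) and the UPRE core TGACGTG, on both strands. RefSeq promoter windows of 300 bases (250 before and 50 after the annotated start, GRCm38.p6) were matched for 36 of the 40 genes, all but Hyou1, Manf, Derl1 and Atf6. Of these, 9 held ERSE (Hspa5, Hsp90b1, Dnajc3, Creld2, Pdia6, Calr, Canx, Syvn1 and Derl3) and 2 held ERSE-II (Dnajb11 and Herpud1), against 0.119% and 0.0365% of all 32851 windows of the same length. The UPRE core was found in 1 of the 36 (Hspa5), against 2.01% of all windows. The windows below are shown because they belong to 4 genes with lower levels in the libraries labelled Tfap2b+/- (Hspa5, Pdia6, Dnajb11 and Calr) and to 2 whose groups overlapped (Canx and Herpud1), so that the same elements can be seen on both sides. They are written 5′ to 3′ in the direction of the gene, with the fixed letters of the elements in capitals; the UPRE of Hspa5 is the first capital run, and in Calr the element lies on the other strand and reads CGTGG and ATTGG.
Hspa5, chr2:34771840-34772139, + strand: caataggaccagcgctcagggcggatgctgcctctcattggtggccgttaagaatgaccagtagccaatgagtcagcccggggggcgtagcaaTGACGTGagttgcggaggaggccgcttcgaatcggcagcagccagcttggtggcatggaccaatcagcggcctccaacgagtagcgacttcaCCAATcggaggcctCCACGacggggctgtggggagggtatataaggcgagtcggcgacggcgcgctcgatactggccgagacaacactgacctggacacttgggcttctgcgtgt
Pdia6, chr12:17266339-17266638, + strand: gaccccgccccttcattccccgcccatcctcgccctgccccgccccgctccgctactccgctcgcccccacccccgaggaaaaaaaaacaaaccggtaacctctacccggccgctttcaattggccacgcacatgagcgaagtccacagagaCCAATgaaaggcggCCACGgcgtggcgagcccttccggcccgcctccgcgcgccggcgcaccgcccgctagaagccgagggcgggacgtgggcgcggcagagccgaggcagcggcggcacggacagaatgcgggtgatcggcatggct
Dnajb11, chr16:22857595-22857894, + strand: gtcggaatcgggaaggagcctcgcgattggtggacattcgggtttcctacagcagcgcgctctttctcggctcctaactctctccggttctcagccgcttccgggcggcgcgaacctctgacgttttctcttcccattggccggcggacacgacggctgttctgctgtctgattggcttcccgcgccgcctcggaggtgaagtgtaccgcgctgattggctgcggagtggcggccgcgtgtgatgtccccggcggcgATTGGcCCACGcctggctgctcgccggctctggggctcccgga
Calr, chr8:84846882-84847181, - strand: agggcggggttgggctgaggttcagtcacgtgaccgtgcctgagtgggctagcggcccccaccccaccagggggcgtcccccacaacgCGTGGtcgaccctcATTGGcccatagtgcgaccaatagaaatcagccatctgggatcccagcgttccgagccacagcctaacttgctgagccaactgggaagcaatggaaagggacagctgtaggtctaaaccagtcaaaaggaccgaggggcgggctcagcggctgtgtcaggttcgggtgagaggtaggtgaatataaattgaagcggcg
Canx, chr11:50325624-50325923, - strand: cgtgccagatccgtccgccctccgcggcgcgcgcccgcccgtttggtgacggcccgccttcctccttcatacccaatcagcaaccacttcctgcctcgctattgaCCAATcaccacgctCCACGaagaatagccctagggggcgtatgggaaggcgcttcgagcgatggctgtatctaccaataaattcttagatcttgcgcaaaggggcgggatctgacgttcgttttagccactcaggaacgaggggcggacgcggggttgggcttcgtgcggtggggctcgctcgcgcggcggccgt
Herpud1, chr8:94386179-94386478, + strand: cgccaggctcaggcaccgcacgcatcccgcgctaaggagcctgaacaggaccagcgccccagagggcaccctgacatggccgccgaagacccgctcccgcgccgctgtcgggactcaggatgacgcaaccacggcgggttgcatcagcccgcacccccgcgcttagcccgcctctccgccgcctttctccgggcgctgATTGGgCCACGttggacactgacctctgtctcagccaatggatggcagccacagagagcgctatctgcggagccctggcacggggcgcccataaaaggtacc
The ERSE of Hspa5 began at position -65 from the annotated start and its UPRE core at -157, while the ERSE of Pdia6 began at -98 and that of Canx at -145. A match is a description of the letters and does not show that a factor bound there.

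**Figure D1:**
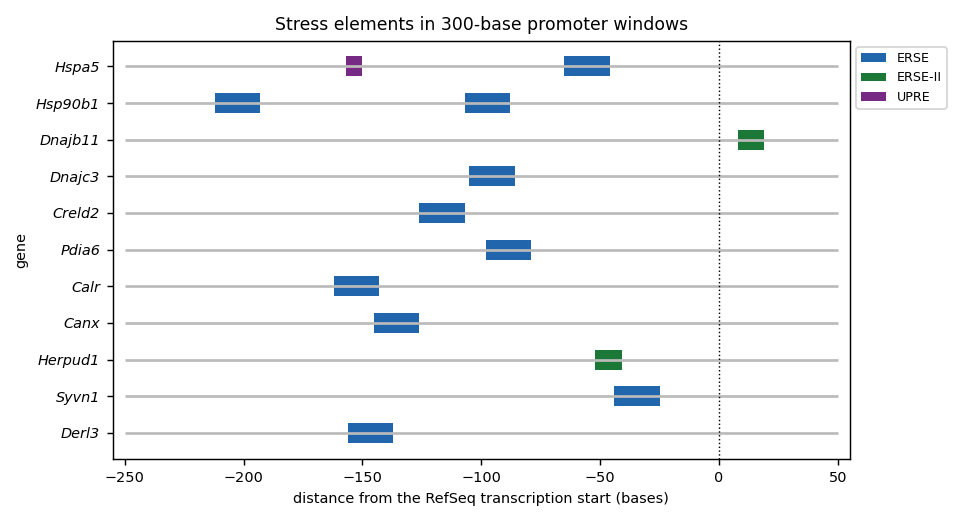
Positions of ERSE, ERSE-II and UPRE core matches (coloured boxes) in the promoter windows of the 11 genes with a match, in bases from the RefSeq start (dotted line). In 10 of the 11 genes the ERSE or ERSE-II lay before the start, and in Dnajb11 it began 8 bases after it.

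Counts in genes came to between 21946800 and 29214975 per library, and a count of 0 allows up to 0.101 to 0.141 CPM (3 counts; counting error only). Levels are given as CPM, the count scaled by TMM to a library of common size, in libraries 1 to 3 of each group. The targeted genes were checked first. Tfap2b had 32.9, 8.90 and 5.81 CPM in the libraries labelled Tfap2b+/-, against 1.88, 2.54 and 3.96 CPM in Tfap2a+/- and 2.25, 0.715 and 14.8 CPM in wild type. The first group overlapped wild type through wild-type library 3, with a log2 fold of 1.42 ± 0.98 (SE, edgeR adjusted p = 0.598). A lower level, which a heterozygote label could lead a reader to look for, was thus not seen. With the design of the alleles not given, these levels do not check the label of the first group. Every result for that group is therefore given as one of the libraries labelled Tfap2b+/-. Tfap2a was low throughout. It had 1.59, 0.674 and 0.113 CPM in the libraries labelled Tfap2b+/-, against 0.445, 0.223 and 0.461 CPM in Tfap2a+/- and 0.610, 0.263 and 0.734 CPM in wild type. The groups overlapped, with the highest value in library 1 labelled Tfap2b+/-, so these levels do not check the Tfap2a+/- label. Markers that define brain cells were abundant: Snap25 of neurons had 2152 to 3547 CPM and Slc1a2 of astrocytes 2937 to 5080 CPM over the 9 libraries. Libraries stood apart by marker lists of region: library 1 labelled Tfap2b+/- had Tph2 of the raphe at 40.9 CPM against at most 1.55 CPM elsewhere, and wild-type library 2 had the highest summed choroid plexus markers, at 5109 CPM.

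No gene of the 17355 passed the Benjamini-Hochberg adjusted threshold of 0.05 in edgeR's quasi-likelihood test in any of the 3 comparisons, so the background share called was 0% in each and no gene below is called as changed. Differences are therefore described by their values, by unadjusted p-values read against all genes, and by whether groups overlapped. Because the list was chosen with earlier results of these data known, its counts set beside all genes are descriptions and not independent evidence.

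Against wild type, BiP and several of the chaperones and isomerases that work with it had their lower levels in the libraries labelled Tfap2b+/-, with no member past the adjusted threshold. Of the 40 genes, 36 had a negative log2 fold and 4 a positive one (Dnajc10, Uggt1, Ern1 and Trib3), with a median of -0.17 against -0.0012 over all genes tested. At an unadjusted p under 0.05 in edgeR, 12 of the 40 were lower (Dnajb11, Sdf2l1, Pdia6, Hyou1, Calr, Hspa5, Manf, Xbp1, Sel1l, Atf6, Pdia4 and Pdia3), where 4.15% of all genes were lower by that rule, and 0 of the 40 were higher, where 6.46% of all genes were. In 15 of the 40 every library labelled Tfap2b+/- lay below every wild-type library, a pattern that 7.63% of all genes showed in that direction, and 8.84% showed its opposite, as 0 of the 40 did. The smallest adjusted p among the 40 was 0.292 in edgeR, and DESeq2 called 2 of the 40 at an adjusted p under 0.05, Dnajb11 and Sdf2l1, where it called 1.01% of all genes. In bulk tissue, fewer cells of a type and less RNA per cell cannot be told apart.

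**Figure D2:**
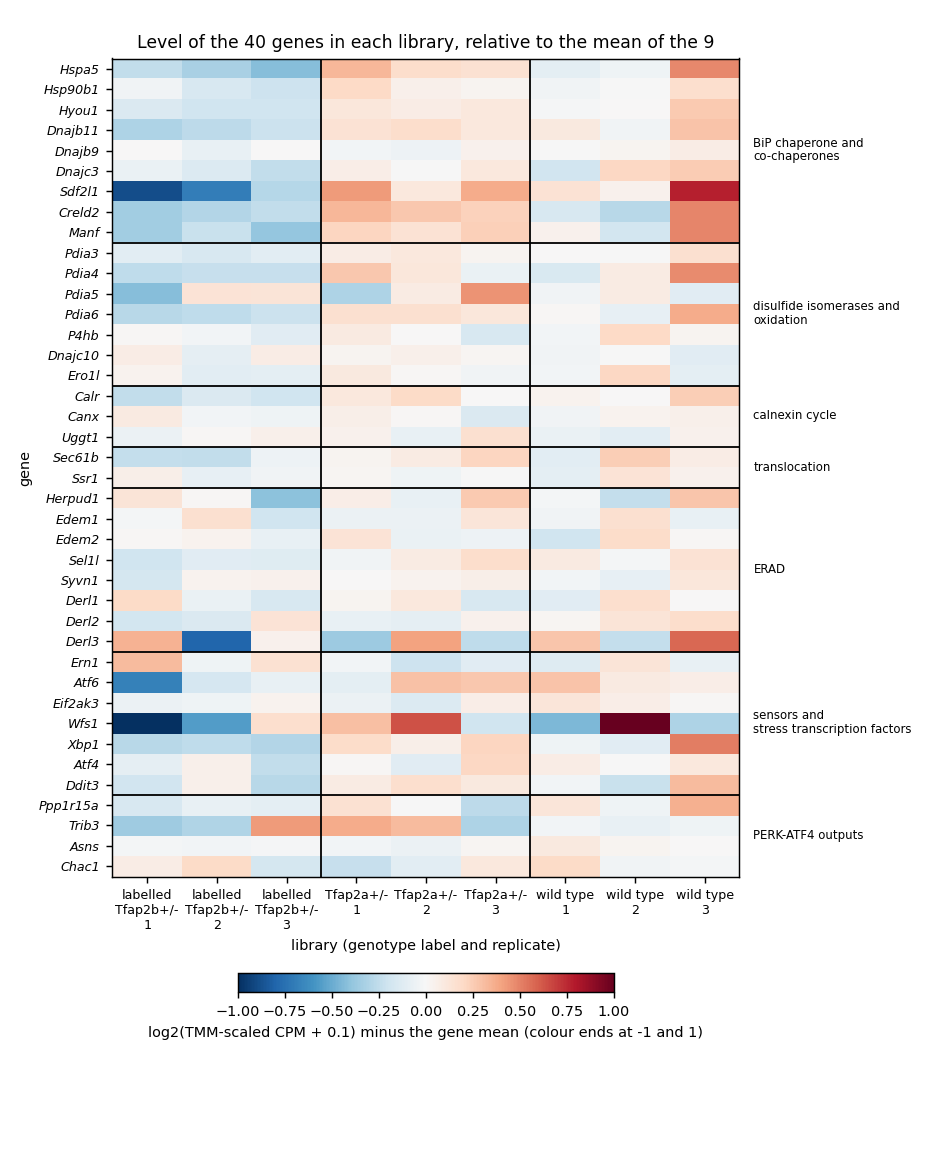
Level of each of the 40 genes (rows, grouped by role) in each of the 9 libraries (columns), as the deviation of log2(CPM + 0.1) from that gene's average in all libraries; blue is below and red above that average. The blue block at the upper left holds the chaperone genes in the 3 libraries labelled Tfap2b+/-, and wild-type library 3 is the reddest column in the same rows.

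The first group of genes is BiP with its co-chaperones. Hspa5, which encodes BiP itself (ENSMUSG00000026864.13, chromosome 2, 34771970 to 34777547, GRCm38), had 237, 225 and 210.1 CPM in the libraries labelled Tfap2b+/-, against 355, 318 and 313 CPM in Tfap2a+/- and 263, 273 and 392 CPM in wild type. All 3 libraries labelled Tfap2b+/- lay below the other 6, and wild-type library 3 stood highest. Its log2 fold was -0.46 ± 0.15 (SE) against wild type (95% interval -0.81 to -0.12, edgeR adjusted p = 0.397) and -0.55 ± 0.15 against Tfap2a+/- (edgeR adjusted p = 0.334). Without wild-type library 3 the fold against wild type was -0.26.

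Dnajb11, the J-domain protein ERdj3 that hands unfolded chains to BiP (ENSMUSG00000004460.17, chromosome 16, 22857845 to 22879634), showed the smallest p of the 40 genes. It had 36.9, 38.0 and 39.3 CPM in the libraries labelled Tfap2b+/-, against 50.3, 51.5 and 49.2 CPM in Tfap2a+/- and 48.8, 44.6 and 55.6 CPM in wild type, so the first group did not overlap either of the others. The log2 fold was -0.38 ± 0.09 against wild type (edgeR adjusted p = 0.292) and -0.40 ± 0.09 against Tfap2a+/- (edgeR adjusted p = 0.330). Sdf2l1, a binding partner of ERdj3 in the ER lumen (ENSMUSG00000022769.9, chromosome 16, 17130138 to 17132383), had 4.09, 4.68 and 6.26 CPM in the libraries labelled Tfap2b+/-, against 10.3, 8.24 and 9.90 CPM in Tfap2a+/- and 8.45, 7.87 and 13.2 CPM in wild type. This was the most negative fold of the 40, -0.97 ± 0.23 against wild type (edgeR adjusted p = 0.317) and -0.92 ± 0.23 against Tfap2a+/- (edgeR adjusted p = 0.330), again with no overlap. Within the libraries labelled Tfap2b+/- it was lowest in library 1 and highest in library 3.

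Hyou1, the large Hsp70 relative GRP170 that exchanges nucleotide on BiP, had 109, 105 and 105 CPM in the libraries labelled Tfap2b+/-, against 131, 127 and 129.9 CPM in Tfap2a+/- and 119.8, 121 and 145 CPM in wild type. Manf, a secreted protein with neurotrophic activity that binds BiP, had 26.0, 28.3 and 25.3 CPM in the libraries labelled Tfap2b+/-, against 38.4, 36.4 and 38.9 CPM in Tfap2a+/- and 34.0, 29.1 and 46.3 CPM in wild type. Both had their 3 lowest values in the libraries labelled Tfap2b+/-, although for Manf the gap to wild-type library 2 was small. The log2 fold against wild type was -0.27 ± 0.08 for Hyou1 (edgeR adjusted p = 0.377) and -0.46 ± 0.15 for Manf (edgeR adjusted p = 0.400), or -0.18 and -0.25 without wild-type library 3. Against Tfap2a+/- the folds were -0.28 ± 0.08 and -0.52 ± 0.15 (edgeR adjusted p = 0.373 and 0.366). Manf shares exon sequence on its strand with Rbm15b, so fragments in that stretch are not counted for either gene.

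Hsp90b1 encodes GRP94, the ER form of Hsp90, and had 289, 265 and 258 CPM in the libraries labelled Tfap2b+/-, against 341, 308 and 302 CPM in Tfap2a+/- and 291, 296 and 334 CPM in wild type. The 3 lowest values were again in the libraries labelled Tfap2b+/-, by a narrow margin to wild-type library 1, and the log2 fold against wild type was -0.18 ± 0.09 (edgeR adjusted p = 0.513). Creld2, an ER protein with EGF-like domains known as an ATF6 target, had 8.01, 8.32 and 8.60 CPM in the libraries labelled Tfap2b+/-, against 12.9, 12.4 and 12.02 CPM in Tfap2a+/- and 9.16, 8.43 and 14.4 CPM in wild type. Here the libraries labelled Tfap2b+/- lay below all 3 of Tfap2a+/- (log2 fold -0.58 ± 0.19, edgeR adjusted p = 0.373) but overlapped wild type (log2 fold -0.36 ± 0.19, edgeR adjusted p = 0.517, and -0.08 without wild-type library 3). Dnajc3, the co-chaperone p58IPK, had 77.6, 73.8 and 68.7 CPM in the libraries labelled Tfap2b+/-, against 85.3, 81.2 and 87.7 CPM in Tfap2a+/- and 71.2, 93.9 and 97.0 CPM in wild type, and overlapped wild type through its library 1 (log2 fold -0.25 ± 0.12, edgeR adjusted p = 0.485). Dnajb9, the co-chaperone ERdj4 that keeps BiP on IRE1, was level, at 47.5 to 52.6 CPM over the 9 libraries. For the 9 genes together, 9 of 9 folds against wild type were negative, 5 with an unadjusted p under 0.05, where 4.15% of all genes were lower by that rule. Their median was -0.36.

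**Figure D3:**
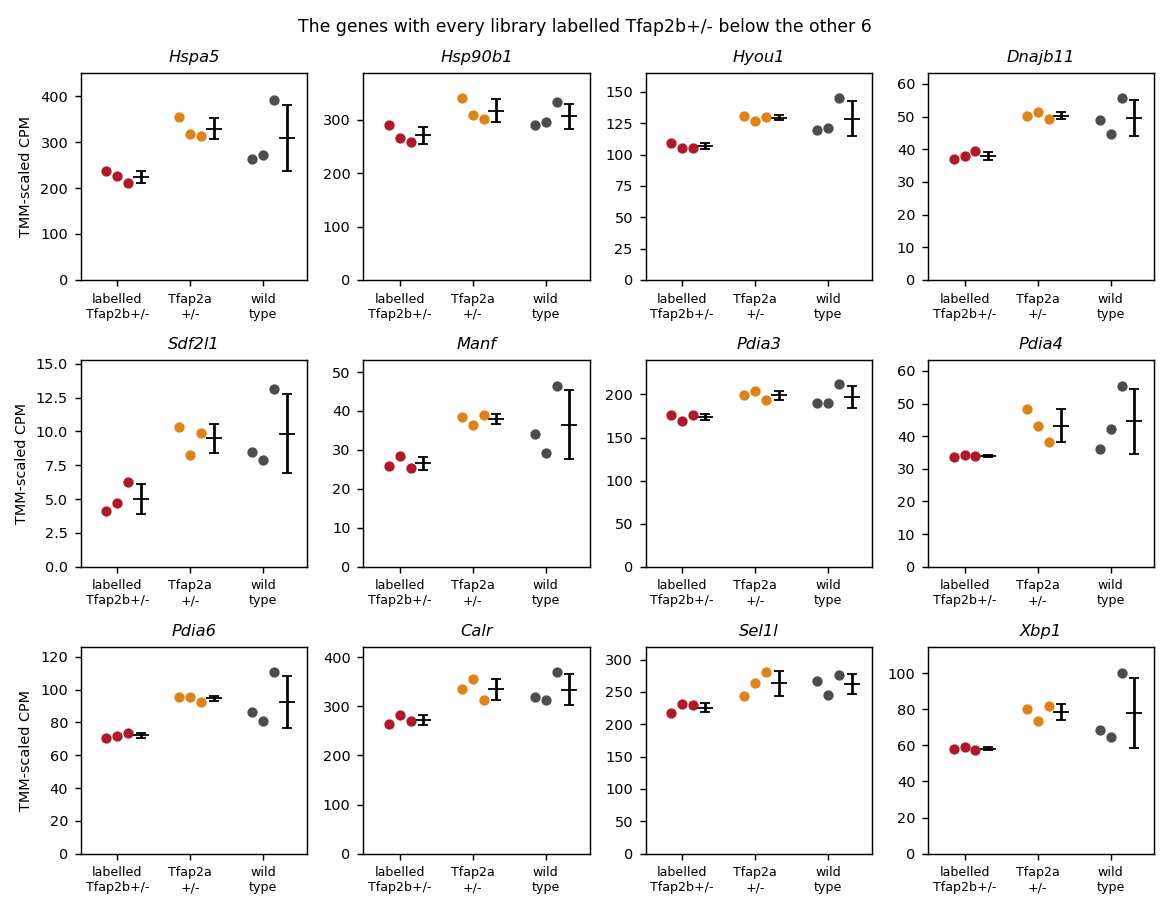
CPM of the 12 genes, chosen by this pattern, in which each library labelled Tfap2b+/- lay below the other 6 libraries; points are libraries, and the bar beside them is the mean with 1 SD (n = 3). Axes start at 0, and the wild-type point farthest from its group is library 3 in most panels.

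The 12 genes of that pattern were Hspa5, Hsp90b1, Hyou1, Dnajb11, Sdf2l1, Manf, Pdia3, Pdia4, Pdia6, Calr, Sel1l and Xbp1. Among all genes tested 3.08% showed it. The spread between the 3 libraries labelled Tfap2b+/- was small in several of them: Xbp1 averaged 58.1 ± 0.774 CPM there, 78.4 ± 4.45 CPM in Tfap2a+/- and 77.8 ± 19.4 CPM in wild type (SD, n = 3 each). Pdia4 averaged 33.9 ± 0.343 CPM in the libraries labelled Tfap2b+/-, 43.2 ± 5.12 CPM in Tfap2a+/- and 44.6 ± 9.90 CPM in wild type. The larger SD of wild type came mainly from its library 3.

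Disulfide isomerases form and rearrange the disulfide bonds of new proteins. Pdia6 (the isomerase P5, ENSMUSG00000020571.12, chromosome 12, 17266545 to 17284770) had 70.6, 71.9 and 73.7 CPM in the libraries labelled Tfap2b+/-, against 95.8, 95.5 and 92.6 CPM in Tfap2a+/- and 86.4, 80.9 and 111 CPM in wild type. The libraries labelled Tfap2b+/- were lowest with no overlap, and the log2 fold was -0.36 ± 0.11 against wild type (edgeR adjusted p = 0.376; -0.22 without wild-type library 3) and -0.39 ± 0.11 against Tfap2a+/- (edgeR adjusted p = 0.348). Pdia4, the isomerase ERp72, had 33.5, 34.1 and 34.0 CPM in the libraries labelled Tfap2b+/-, against 48.3, 43.3 and 38.1 CPM in Tfap2a+/- and 36.0, 42.2 and 55.4 CPM in wild type. Its fold against wild type was -0.40 ± 0.15 (edgeR adjusted p = 0.449), or -0.21 without wild-type library 3. Pdia3, the isomerase ERp57 that works with calnexin and calreticulin, had 176, 169.5 and 176 CPM in the libraries labelled Tfap2b+/-, against 199.7, 204 and 194 CPM in Tfap2a+/- and 190.4, 189.5 and 212 CPM in wild type. It too did not overlap, with a smaller fold of -0.18 ± 0.07 against wild type (edgeR adjusted p = 0.457) and -0.20 ± 0.07 against Tfap2a+/- (edgeR adjusted p = 0.392).

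The other oxidation genes overlapped between the libraries labelled Tfap2b+/- and wild type. P4hb, the founding disulfide isomerase, averaged 99.4 ± 4.46 CPM in the libraries labelled Tfap2b+/-, 101 ± 8.88 CPM in Tfap2a+/- and 108 ± 9.15 CPM in wild type. Ero1l, the oxidase that recharges it, averaged 40.5 ± 2.21 CPM in the libraries labelled Tfap2b+/-, 42.9 ± 2.04 CPM in Tfap2a+/- and 43.1 ± 4.91 CPM in wild type (SD, n = 3 each). Dnajc10, the reductase ERdj5, averaged 88.7 ± 5.83 CPM in the libraries labelled Tfap2b+/-, 89.5 ± 1.08 CPM in Tfap2a+/- and 84.4 ± 3.35 CPM in wild type. Pdia5, an isomerase at low level, ranged over 1.66 to 3.13 CPM in the 9 libraries. Of the 7 genes of this role 6 had negative folds against wild type, with a median of -0.11. Of these, 3 had an unadjusted p under 0.05, where 4.15% of all genes were lower by that rule.

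In the calnexin cycle, 1 of 3 genes was lower than in wild type at an unadjusted p under 0.05, where 4.15% of all genes were. Calr, calreticulin, which holds glycoproteins in the lumen and stores calcium (ENSMUSG00000003814.8, chromosome 8, 84841850 to 84846934), had 263, 282 and 271 CPM in the libraries labelled Tfap2b+/-, against 335, 355 and 313 CPM in Tfap2a+/- and 319, 312 and 370.0 CPM in wild type. The libraries labelled Tfap2b+/- did not overlap the others (log2 fold -0.30 ± 0.09 against wild type, edgeR adjusted p = 0.377, and -0.30 ± 0.09 against Tfap2a+/-, edgeR adjusted p = 0.373). A pseudogene of Calr is annotated, and fragments that match both places would not be counted. Canx, calnexin, its membrane-bound partner, had 430.4, 396 and 391 CPM in the libraries labelled Tfap2b+/-, against 420.2, 408 and 366 CPM in Tfap2a+/- and 394, 414 and 419 CPM in wild type, with full overlap. Uggt1, the glucosyltransferase that returns misfolded glycoproteins to the cycle, ranged over 74.9 to 90.2 CPM, also with overlap. The interval of the fold against wild type was -0.20 to 0.18 for Canx and -0.14 to 0.23 for Uggt1, so small differences in either direction could not be detected.

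For entry into the ER, Sec61b, a small subunit of the Sec61 channel, had 7.27, 7.25 and 8.30 CPM in the libraries labelled Tfap2b+/-, against 8.80, 9.13 and 10.0 CPM in Tfap2a+/- and 7.98, 10.2 and 9.07 CPM in wild type. It lay below all Tfap2a+/- libraries, with an unadjusted p under 0.05 in that comparison, and overlapped wild type (log2 fold -0.26 ± 0.13, edgeR adjusted p = 0.500). Ssr1, a subunit of the TRAP complex beside the channel, was level at 188 to 222 CPM over the 9 libraries.

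Among the 8 ERAD genes, all folds against wild type were negative, but the median was only -0.07. Where 4.15% of all genes were lower at an unadjusted p under 0.05, 1 of the 8 was. That gene was Sel1l, the scaffold of the HRD1 ubiquitin ligase (ENSMUSG00000020964.14, chromosome 12, 91806043 to 91849157), with 217, 231 and 229 CPM in the libraries labelled Tfap2b+/-, against 244, 264 and 281 CPM in Tfap2a+/- and 266, 246 and 276 CPM in wild type. It did not overlap (log2 fold -0.22 ± 0.08 against wild type, edgeR adjusted p = 0.447), and its lowest Tfap2a+/- and wild-type values were close to each other. Syvn1, the ligase HRD1 that Sel1l holds, did overlap: it had 40.2, 46.4 and 46.6 CPM in the libraries labelled Tfap2b+/-, against 45.5, 46.6 and 47.3 CPM in Tfap2a+/- and 44.5, 42.9 and 49.2 CPM in wild type. Herpud1, a membrane protein of the same complex, had 51.3, 47.5 and 35.3 CPM in the libraries labelled Tfap2b+/-, against 49.2, 44.7 and 56.3 CPM in Tfap2a+/- and 46.4, 39.9 and 57.0 CPM in wild type, with library 3 lowest of the first group and wide overlap.

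The other ERAD genes differed little. Edem1 and Edem2, which trim mannose on proteins to be degraded, ranged over 23.0 to 29.5 and 13.9 to 18.1 CPM. Of the derlins, membrane proteins of the export channel, Derl1 ranged over 52.5 to 67.1 CPM and Derl2 had 21.0, 21.6 and 26.3 CPM in the libraries labelled Tfap2b+/-, against 22.7, 22.5 and 24.6 CPM in Tfap2a+/- and 24.2, 26.2 and 27.0 CPM in wild type (log2 fold of the first against wild type -0.17 ± 0.10, edgeR adjusted p = 0.560). Derl3, the derlin known from secretory tissues, was scarce at 0.506 to 1.47 CPM, where few counts limit any comparison.

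The sensors did not move as 1 group. Atf6, the membrane-bound transcription factor that is cleaved in the Golgi (ENSMUSG00000026663.6, chromosome 1, 170704674 to 170867771), had 74.4, 106 and 113 CPM in the libraries labelled Tfap2b+/-, against 111, 146 and 144 CPM in Tfap2a+/- and 145, 127 and 125 CPM in wild type. All 3 were below wild type and library 1 was far below the rest, while libraries 2 and 3 were close to Tfap2a+/- library 1. The log2 fold against wild type was -0.44 ± 0.17 (edgeR adjusted p = 0.449), and -0.27 without library 1 labelled Tfap2b+/-. Ern1, which encodes IRE1 alpha, the kinase and endonuclease that splices Xbp1 RNA, went the other way, with 18.5, 14.4 and 16.5 CPM in the libraries labelled Tfap2b+/-, against 14.5, 12.8 and 13.7 CPM in Tfap2a+/- and 13.5, 16.2 and 14.1 CPM in wild type. These groups overlapped (log2 fold 0.17 ± 0.12 against wild type, edgeR adjusted p = 0.606). Eif2ak3, which encodes PERK, the kinase that slows translation, was level at 29.7 to 35.5 CPM over the 9 libraries.

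Xbp1, the transcription factor made active by IRE1 splicing (ENSMUSG00000020484.18, chromosome 11, 5520659 to 5525893), had 58.1, 58.9 and 57.4 CPM in the libraries labelled Tfap2b+/-, against 80.0, 73.3 and 81.8 CPM in Tfap2a+/- and 68.4, 64.9 and 100.1 CPM in wild type. Its 3 values in the libraries labelled Tfap2b+/- lay close together and did not overlap the others. Its log2 fold was -0.42 ± 0.15 against wild type (edgeR adjusted p = 0.429; -0.20 without wild-type library 3) and -0.43 ± 0.15 against Tfap2a+/- (edgeR adjusted p = 0.390). Gene counts add the spliced and unspliced forms, so the active share was not measured. Wfs1, an ER membrane protein that restrains ATF6 and is mutated in Wolfram syndrome, varied most, with 54.0, 77.3 and 128 CPM in the libraries labelled Tfap2b+/-, against 141, 177 and 99.5 CPM in Tfap2a+/- and 83.5, 317 and 91.8 CPM in wild type. Its log2 fold against wild type was -0.93 ± 0.53 (edgeR adjusted p = 0.540), and -0.01 without wild-type library 2, the highest of the 9.

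Of the PERK branch and its stress factors, no gene had an unadjusted p under 0.05 against wild type, where 4.15% of all genes were lower and 6.46% higher. Atf4, the transcription factor translated when PERK is active, had 69.7, 77.0 and 62.6 CPM in the libraries labelled Tfap2b+/-, against 74.7, 68.4 and 85.6 CPM in Tfap2a+/- and 78.3, 73.8 and 79.9 CPM in wild type, with overlap. Ddit3, which encodes the factor CHOP of prolonged stress, had 10.7, 12.7 and 10.1 CPM in the libraries labelled Tfap2b+/-, against 13.0, 13.8 and 13.1 CPM in Tfap2a+/- and 11.98, 10.5 and 15.3 CPM in wild type, below every Tfap2a+/- library and overlapping wild type. Ppp1r15a, the phosphatase subunit GADD34 that restarts translation, had 10.6, 11.3 and 11.1 CPM in the libraries labelled Tfap2b+/-, against 13.2, 11.9 and 9.90 CPM in Tfap2a+/- and 12.9, 11.5 and 15.2 CPM in wild type, with a narrow gap between the first group and wild type (log2 fold -0.26 ± 0.14, edgeR adjusted p = 0.517). Asns, asparagine synthetase, also had all 3 libraries labelled Tfap2b+/- below wild type, by a small margin: 70.3, 70.2 and 70.9 CPM in the libraries labelled Tfap2b+/-, against 70.0, 68.6 and 72.4 CPM in Tfap2a+/- and 76.3, 72.7 and 71.6 CPM in wild type. Chac1, which degrades glutathione, ranged over 3.42 to 4.62 CPM, and Trib3, a pseudokinase induced by ATF4 and CHOP, over 0.353 to 0.679 CPM, both with overlap. Of the 4 outputs of this branch, 0 had an unadjusted p under 0.05 against wild type and the median log2 fold was -0.04. With so few genes, a count of 0 is near the shares of all genes, so it does not set this branch apart. In 2 of them (Ppp1r15a and Asns) every library labelled Tfap2b+/- lay below every wild-type one, a pattern of 7.63% of all genes.

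**Figure D4:**
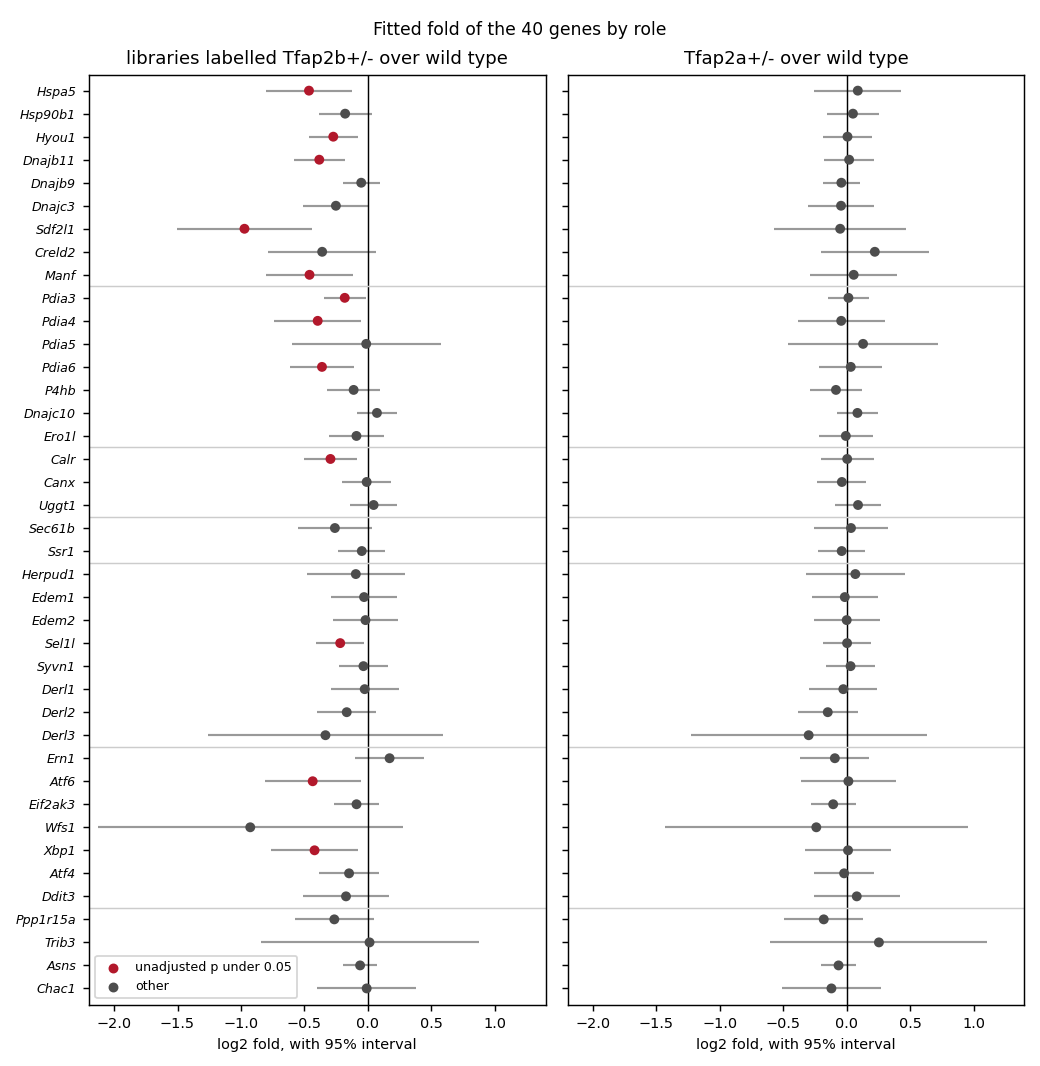
Fitted log2 fold with its 95% interval for each of the 40 genes, grouped by role, for the libraries labelled Tfap2b+/- over wild type (left) and Tfap2a+/- over wild type (right); red points have an unadjusted p under 0.05. The 12 red points are all in the left panel and all below 0. Both panels use the same 3 wild-type libraries.

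Levels between genes can be compared per kilobase of exon. By mean CPM per kilobase over the 9 libraries Calr stood highest at 109, followed by Canx at 86.1, Hsp90b1 at 73.9, Hspa5 at 67.9 and Pdia3 at 60.6. Derl3 and Trib3 were lowest at 0.499 and 0.232. Among the abundant ones Calr, Hsp90b1, Hspa5 and Pdia3 were of the 12 genes lowest in each library labelled Tfap2b+/- and Canx was not.

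For Tfap2a+/- against wild type, the same genes showed no shared direction. Positive and negative folds were 20 each, the median was 0.0014 against -0.0064 over all genes tested, and 0 of 40 had an unadjusted p under 0.05 in edgeR, where 2.15% of all genes were higher and 1.68% lower. DESeq2 called 0 of the 40 at an adjusted p under 0.05, and 0.173% of all genes. The smallest p values of the 40 belonged to Derl2 (-0.15 ± 0.10, edgeR adjusted p = 0.999), Eif2ak3 (-0.11 ± 0.08), Ppp1r15a (-0.18 ± 0.14), Dnajc10 (0.08 ± 0.07) and Creld2 (0.22 ± 0.19), then Uggt1 (0.09 ± 0.08), Asns (-0.06 ± 0.06), P4hb (-0.08 ± 0.09), Ern1 (-0.09 ± 0.12) and Derl3 (-0.30 ± 0.41), all with the same adjusted p. Only Dnajc10 had groups that did not overlap, with 89.1, 90.7 and 88.6 CPM in Tfap2a+/- and 85.3, 87.2 and 80.7 CPM in wild type, a pattern seen in 4.85% of all genes in that direction; 0 of 40 had it in the other, where 4.32% of all genes did. This comparison depended on wild-type library 3: without it, 5 of the 40 were higher in Tfap2a+/- at an unadjusted p under 0.05, namely Creld2, Hspa5, Xbp1, Manf and Pdia6, and the log2 fold of Creld2 was 0.50. In that fit 649 of the 17840 genes tested had an unadjusted p under 0.05 in either direction, so the number higher was at most that.

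Set against Tfap2a+/-, the libraries labelled Tfap2b+/- had a negative log2 fold for 34 of the 40 genes and a positive one for 6, with a median log2 fold of -0.15 against 0.01 over all genes. In edgeR, 15 were lower at an unadjusted p under 0.05, where 4.98% of all genes were, and 0 were higher, where 6.53% were. They were Dnajb11, Sdf2l1, Hspa5, Pdia6, Manf, Hyou1, Calr, Creld2, Xbp1, Pdia3, Atf6, Sel1l, Hsp90b1, Pdia4 and Sec61b. No overlap, with the libraries labelled Tfap2b+/- lower, was found for 16 of the 40 and for 8.03% of all genes, and the opposite for 0 of the 40 and 9.2% of all genes. DESeq2 called 3 of the 40, Dnajb11, Sdf2l1 and Hspa5, and 1.31% of all genes. Striatal markers differed in the same comparison: 12 of 12 had a negative fold, with a median of -1.87. Of these, 10 had an unadjusted p under 0.05 and 6 no overlap, beside the 4.98% and 8.03% of all genes. Their sum was 426 to 837 CPM in the libraries labelled Tfap2b+/-, against 1035 to 2907 CPM in Tfap2a+/-. Their part in the 15 lower genes was not tested. This comparison shares the libraries labelled Tfap2b+/- with the one against wild type, so the lists are not independent. Wild-type library 3 enters this difference only through the shared spread, the filter and the scaling. Without it 14 of the 40 were lower at an unadjusted p under 0.05, and without Tfap2a+/- library 2 there were 9. Of all genes tested in these fits, 1841 of 17840 and 1167 of 17857 had such a p in either direction, so the numbers lower were at most those.

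Genes with an ERSE or ERSE-II in their window were set beside those without one. Against wild type, the median log2 fold in the libraries labelled Tfap2b+/- was -0.30 for the 11 genes with an element, of which 11 were negative and 4 had an unadjusted p under 0.05, and -0.09 for the 25 matched genes without, of which 21 were negative and 5 had an unadjusted p under 0.05. Against Tfap2a+/- the medians were -0.23 with an element and -0.08 without, with 6 of 11 and 6 of 25 lower by that p. Of all genes 4.15% were lower by it against wild type and 4.98% against Tfap2a+/-. The element did not separate the genes. Every library labelled Tfap2b+/- lay below every wild-type one in 5 of the 11 genes with an element and 7 of the 25 without, beside 7.63% of all genes. Dnajc3, Creld2, Canx, Syvn1 and Derl3, which hold ERSE, and Herpud1, which holds ERSE-II, overlapped wild type. Sdf2l1, Xbp1 and Pdia4, with none in this window, were among the lower genes. Hyou1, Manf and Atf6, also lower, had no matched window, and only exact matches were counted. A part of the element was not tested. For Tfap2a+/- against wild type the medians were 0.03 with an element and -0.02 without.

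Other genes of the same pathways were counted by role, beside the 4.15% of all genes that were lower and the 6.46% that were higher by the same rule. At an unadjusted p under 0.05 in edgeR, 0 of 21 further ER chaperones and oxidoreductases were lower and 1 higher in the libraries labelled Tfap2b+/- than in wild type (median log2 fold -0.03). The higher one was Uggt2, a relative of Uggt1, with 37.7 ± 5.02 CPM in the libraries labelled Tfap2b+/- against 26.3 ± 3.08 CPM in wild type (SD, n = 3 each). Of 16 genes of N-glycosylation 1 was lower, Rpn1, a subunit of the oligosaccharyl transferase, at 112.2 ± 2.09 CPM in the libraries labelled Tfap2b+/- against 130.2 ± 7.73 CPM in wild type. Of 17 further genes of the translocon and signal peptidase 2 were lower, Sec61a1, the channel itself, and Ssr2, a TRAP subunit, and of 22 further ERAD genes 1 was, Selenok, a selenoprotein of the ERAD machinery. None of these last 3 lists had a higher gene by that rule, and their medians were -0.11, -0.06 and -0.06.

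Of 16 further UPR sensors and regulators, 2 were lower (Eif2s1, the translation factor that PERK phosphorylates, and Creb3, a membrane-bound factor related to ATF6) and 1 was higher (Eif2ak2, the kinase PKR). Among 24 further targets of ATF4 and CHOP, 4 were lower and 1 was higher. Of 20 genes of transport from the ER to the Golgi 4 were lower and 1 was higher. The lower ones included Cebpg, a partner of CHOP and ATF4, at 34.5 ± 1.91 CPM in the libraries labelled Tfap2b+/- against 39.6 ± 1.45 CPM in wild type. Slc3a2, the heavy chain of amino acid transporters, was also lower, at 82.7 ± 5.16 CPM in the libraries labelled Tfap2b+/- against 96.4 ± 6.10 CPM in wild type. In the transport list they included Tmed2, a cargo receptor of the p24 family, at 19.3 ± 1.76 CPM in the libraries labelled Tfap2b+/- against 23.8 ± 1.55 CPM in wild type. Another was Lman2, the lectin VIP36, at 70.7 ± 4.07 CPM in the libraries labelled Tfap2b+/- against 86.7 ± 10.1 CPM in wild type. None of these 4 overlapped wild type in the libraries labelled Tfap2b+/-. Cebpg and Slc3a2 were not particular to those libraries. In Tfap2a+/- they averaged 37.2 ± 0.594 and 79.6 ± 4.83 CPM, also below every wild-type library, and Slc3a2 had an unadjusted edgeR p under 0.05 there too. Tmed2 and Lman2 overlapped wild type in Tfap2a+/-, at 23.3 ± 0.932 and 79.4 ± 4.05 CPM. The higher ones were Slc7a11, the cystine transporter, at 111.4 ± 25.3 CPM in the libraries labelled Tfap2b+/- against 81.0 ± 0.643 CPM in wild type, and Sec24a, a COPII coat subunit, at 30.1 ± 3.08 CPM in the libraries labelled Tfap2b+/- against 24.1 ± 1.10 CPM in wild type (SD, n = 3 each). Slc7a11 was also above every wild-type library in Tfap2a+/-, at 91.3 ± 5.02 CPM, while Sec24a overlapped wild type there, at 23.8 ± 2.84 CPM. The lists of ATF4 and CHOP targets and of transport genes had medians of -0.08 and -0.10 in the libraries labelled Tfap2b+/- against wild type.

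A score per library, the mean over a list of log2(CPM + 0.1) minus each gene's mean, put the 9 BiP chaperone genes at -0.26, -0.26 and -0.24 in the libraries labelled Tfap2b+/-, 0.20, 0.11 and 0.15 in Tfap2a+/- and -0.02, -0.03 and 0.36 in wild type. Wild-type library 3 stood alone in its group, and libraries 1 and 2 lay between the libraries labelled Tfap2b+/- and those of Tfap2a+/-. The same library held the highest value of 19 of the 40 genes, against 7.49% of all genes tested. The 3 libraries labelled Tfap2b+/- held the lowest value of 13, 6 and 9 of the 40, against 22.6%, 4.92% and 10.9% of all genes.

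Other measures also set the libraries labelled Tfap2b+/- apart from the other groups. The 20 immediate early genes, which neurons and other cells switch on within minutes of activity and which also respond to handling, scored -0.98, -0.54 and -0.44 in the libraries labelled Tfap2b+/-, 0.39, -0.12 and 0.13 in Tfap2a+/- and 0.22, 0.05 and 1.28 in wild type. Their summed level was 508 to 768 CPM in the libraries labelled Tfap2b+/-, in Tfap2a+/- 1072 to 1483 CPM and in wild type 1091 to 2435 CPM. In the libraries labelled Tfap2b+/- 20 of 20 were lower than in wild type (median log2 fold -1.32). Of these, 18 had an unadjusted p under 0.05, where 4.15% of all genes were lower by that rule. As with the chaperones, the 3 libraries labelled Tfap2b+/- were lowest and wild-type library 3 was highest. The share of fragments outside annotated exons was taken on the sense strand, so it includes fragments within exons on the opposite strand. It was 11.8%, 11.1% and 11.1% in the libraries labelled Tfap2b+/-, 8.94%, 8.07% and 8.96% in Tfap2a+/- and 8.86%, 7.30% and 7.88% in wild type, with no overlap of the first group with the others (two-sided exact permutation p = 0.1 against wild type, the smallest that 3 against 3 libraries allow). Within wild type, library 3 had the highest chaperone score and the middle value of this share. A relation between the measures within these 3 libraries was not tested. With that share as a term in the fit, 0 of the 40 genes were lower at an unadjusted p under 0.05 against wild type. Over all genes the share lower by that rule was 1.16% with the term and 4.15% without it. Against Tfap2a+/- it was also 0 of the 40, where 1.45% of all genes were lower with the term. Of the 12 genes lower without the term, 11 still had a negative fold and Pdia4 had 0.020. The median SE of the 12 was 0.41 with the term and 0.13 without. The fold with the term was -0.38 ± 0.28 for Dnajb11, -0.92 ± 0.76 for Sdf2l1 and -0.43 ± 0.50 for Hspa5. Other genes of the 12 moved more between fits. Over all alternatives run, which include this fit, the fold nearest 0 was -0.099 for Calr and -0.15 for Atf6. In the main fit these were -0.295 and -0.435. The part of these measures in the chaperone levels was not tested beyond this fit.

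**Figure D5:**
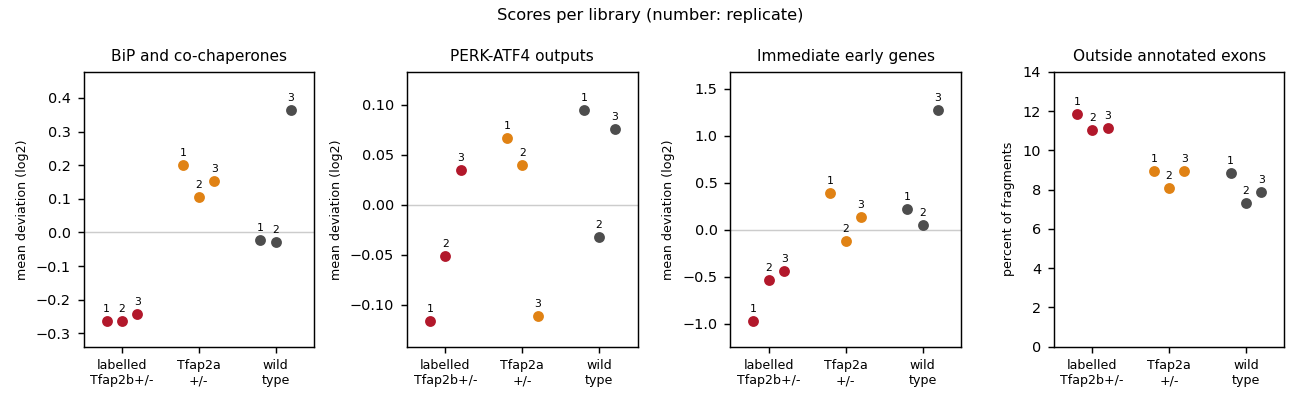
Per-library values (points, numbered by replicate) of the score of the 9 BiP chaperone genes, the score of the 4 PERK-ATF4 outputs, the score of the 20 immediate early genes (mean log2 deviation from the gene means) and the percent of fragments outside annotated exons on the sense strand. The 3 libraries labelled Tfap2b+/- are the lowest in the chaperone and immediate early panels and the highest in the panel of fragments outside exons, and they overlap the other groups in the PERK-ATF4 panel.

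Cell type and region markers also differed between groups. At an unadjusted p under 0.05 against wild type, 4.15% of all genes were lower and 6.46% higher in the libraries labelled Tfap2b+/-. The 10 neuronal markers summed to 8587 to 9962 CPM in the libraries labelled Tfap2b+/-, 9101 to 11545 CPM in Tfap2a+/- and 10045 to 11198 CPM in wild type, with 9 of 10 folds against wild type negative (median -0.12) and 0 with an unadjusted p under 0.05. The 10 microglial markers summed to 281 to 401 CPM in the libraries labelled Tfap2b+/-, 393 to 533 CPM in Tfap2a+/- and 376 to 436 CPM in wild type. The 12 choroid plexus markers, of a secretory epithelium, summed to 233 to 718 CPM in the libraries labelled Tfap2b+/-, 253 to 1531 CPM in Tfap2a+/- and 345 to 5109 CPM in wild type. Against wild type, 11 of 12 folds were negative in the libraries labelled Tfap2b+/- (median -2.30) and 12 of 12 in Tfap2a+/- (median -1.69). In both comparisons 0 of the 12 had an unadjusted p under 0.05. The 10 markers of meningeal fibroblasts summed to 137 to 259 CPM in the libraries labelled Tfap2b+/-, against 129 to 174 CPM in Tfap2a+/- and 110 to 137 CPM in wild type. All 10 had a positive fold against wild type, 6 with an unadjusted p under 0.05 (median 0.48). Of 8 olfactory bulb markers 6 passed the filter, and all 6 had a positive fold against wild type, 3 with an unadjusted p under 0.05 (median 1.99). The 8 summed to 17.4 to 171 CPM in the libraries labelled Tfap2b+/-, against 11.3 to 33.3 CPM in Tfap2a+/- and 8.31 to 19.8 CPM in wild type. Their score was 0.11, -0.24 and 2.56 in libraries 1 to 3 labelled Tfap2b+/-, so library 3 stood alone in its group. The 3 raphe and hindbrain markers of 9 that passed also had positive folds, 2 of them with an unadjusted p under 0.05. The raphe and hindbrain score was 4.89, 0.17 and 0.24 in libraries 1 to 3 labelled Tfap2b+/-, so here library 1 stood alone. The striatal markers given above had 0 of 12 with an unadjusted p under 0.05 against wild type in the libraries labelled Tfap2b+/-. In Tfap2a+/- 8 of 12 were higher by that rule (median 2.03), where 2.15% of all genes were, and the sum in wild type was 463 to 1070 CPM.

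For ependymal cells, oligodendrocytes and astrocytes, 0 of 8, 0 of 12 and 0 of 10 markers had an unadjusted p under 0.05 in the libraries labelled Tfap2b+/- against wild type. For microglia 1 of 10 was lower, for endothelial cells 1 of 10 was higher, and for peptide secretory neurons 2 of the 7 that passed were lower. These counts stand beside the 4.15% of all genes that were lower and the 6.46% that were higher. All 10 microglial folds were negative (median -0.24), and so were all 8 ependymal ones (median -0.62). In Tfap2a+/- all 8 ependymal folds against wild type were negative too (median -0.73). The part of these cell types and regions in the levels of the 40 genes was not tested beyond leaving out libraries. Leaving out library 1 labelled Tfap2b+/-, library 1 of Tfap2a+/- and library 2 of wild type, which had the highest choroid plexus or raphe scores and were chosen after seeing the data, left 11 of the 40 genes lower against wild type at an unadjusted p under 0.05, and the log2 fold of Hspa5 was -0.58. In that fit 1051 of the 17190 genes tested had an unadjusted p under 0.05 in either direction, so the number lower was at most that.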

How the data were processed

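The authors deposited 1 table of raw counts per library, with unstranded, forward-strand and reverse-strand columns per gene. Per the labels' protocols the kit was stranded with dUTP, so the reverse-strand count was used; forward-strand counts were 4.16% to 4.94% of stranded counts. Trimming and alignment tools in the submitters' processing notes are cutadapt 2.4 and STAR 2.6.1d, beside edgeR and the build GRCm38.p6. Of 54446 identifiers, 54409 were named from GENCODE M21, ignoring versions, and all 40 genes matched by symbol; of 2 identifiers named Ddit3, the one without counts was left out. The 4 summary rows without a gene were kept out of all totals. Fragments outside exons on the sense strand, which 1 of these rows counts, were 7.30% to 11.8% of fragments. Fragments mapped to several places are not in the counts.

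Genes past filterByExpr (17355) were fitted by genotype alone over all 9 libraries, after TMM scaling, and compared by the quasi-likelihood test of edgeR 4.0.16 under R 4.3.3. Adjusted p-values are Benjamini-Hochberg over all genes tested. Alternatives were DESeq2 1.42.0, its size factors, TMM on protein-coding genes, other filters, counts without regard to strand, a replicate block, only the 2 genotypes compared, the share outside exons as a covariate and each library left out. The script was tested on simulated data. All 40 genes are named with levels; fold, SE and adjusted p are given for the 20 of smallest p in the libraries labelled Tfap2b+/- against wild type and the 10 in each other comparison. From each other pathway list up to 3 genes of smallest p could be named, and from each marker list up to 2 of highest level. The members and lists were chosen with earlier results of these data known. Promoter sequences are from RefSeq; protein sequences were not used here.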

Additional observations from a re-analysis of the deposited data

Results flagged for a closer look

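The share of fragments outside annotated exons on the sense strand, a measure beside the gene counts, averaged 11.3% ± 0.426 in the libraries labelled Tfap2b+/-, 8.66% ± 0.505 in Tfap2a+/- and 8.01% ± 0.788 in wild type (SD, n = 3 each). It stood out because every library labelled Tfap2b+/- was above the level of all wild-type libraries. The two-sided exact permutation p against wild type was 0.1, the smallest that 3 against 3 libraries allow, and for Tfap2a+/- against wild type it was 0.2. Its part in the levels of the chaperone genes was not tested beyond the fit that carries it as a term. Groups of 3 libraries were too small to look for single outlying samples.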

How the results depend on the processing

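With 3 libraries a group, no adjusted call was made in edgeR, and low genes such as Derl3 and Trib3 rest on few counts. All folds named kept their direction under all alternatives run except those given next. With the share outside exons as a covariate, which differs between the groups, 0 of the 40 genes were lower at an unadjusted p under 0.05 in both comparisons of the libraries labelled Tfap2b+/- and 1 was higher (Wfs1). The median log2 fold against Tfap2a+/- was then -0.12, and folds against wild type turned to 0.020 for Pdia4, 0.11 for Dnajc3, 0.21 for Sec61b, 2.75 for Wfs1 and 0.051 for Derl2; the cause was not tested. Without the 3 libraries of highest choroid plexus or raphe score, chosen after seeing the data, the fold of Wfs1 against wild type was 0.23, 1 gene (Ppp1r15a) was lower in Tfap2a+/- than in wild type, and edgeR called 2 genes of all tested in the libraries labelled Tfap2b+/- against wild type and 1 against Tfap2a+/-. DESeq2 called 175 genes in the libraries labelled Tfap2b+/- against wild type, with Dnajb11 and Sdf2l1 among them (adjusted p = 0.0255 each), 228 against Tfap2a+/-, with Dnajb11 (adjusted p = 0.0133), Sdf2l1 and Hspa5 among them, and 30 in Tfap2a+/- against wild type; the cause was not tested. With no filter on low counts edgeR called 7 and 2 genes in the last 2 of these comparisons. TMM on protein-coding genes put 1 gene (Ern1) higher against Tfap2a+/-.

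Leaving out each library in turn gave 8 to 14 lower genes among the 40 for the libraries labelled Tfap2b+/- against wild type (8 without their library 1, 9 without their library 2 or wild-type library 3), with medians of -0.21 to -0.12 and 0 to 4 genes called of all tested. Against Tfap2a+/- it gave 9 to 16 lower, 0 to 1 higher, medians of -0.19 to -0.15 and 0 to 31 genes called, 31 without library 3 labelled Tfap2b+/-. For Tfap2a+/- against wild type it gave 0 to 5 higher, medians of -0.04 to 0.04 and 0 to 3 genes called. Genes of all tested with an unadjusted p under 0.05 in either direction numbered 1134 to 2799, 1096 to 3293 and 534 to 926 in these 3 comparisons. They are upper limits for a single direction. With the replicate number as a block, 10 and 12 of the 40 were lower in the libraries labelled Tfap2b+/- against wild type and Tfap2a+/-. In that fit 1718 and 1848 of all genes had an unadjusted p under 0.05 in either direction, so the numbers lower were at most those. With the block edgeR called 0 genes in each comparison. Same-numbered libraries did not deviate together (correlations of -0.35 to 0.34), so the numbers were not taken to pair samples.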
